A study of Mus musculus with 24 samples.

Results

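Myosin light chains are described here through 9 genes of the 28109 in the deposited table. They were chosen by name, as the light chain genes Myl1, Myl2, Myl3, Myl4, Myl6, Myl6b, Myl9 and Mylpf and the kinase gene Mylk2, with earlier results of these libraries in view. The levels and fold changes of these genes are therefore a description of them, and an adjusted p printed for one is the value it had in a fit over all genes, not independent evidence. RNA-seq was carried out on 24 libraries, 2 biological replicates for each of 12 groups. The cells were C2C12, an established myoblast line of C3H mouse origin, and primary myoblasts (PMs). The PMs were isolated from muscle of young C57BL/6 mice, written C57/B6 in the sample labels. Both were transfected with siControl, an siRNA against luciferase, or with a pool of siRNAs against Tead1 and Tead4 (siTead1/4). RNA was taken the day after transfection, before the change to low-serum differentiation medium (day 0), and after 3 and 6 days in that medium. All cells, controls included, went through transfection, and no untransfected cells were compared. The 2 cell types differed in strain and in growth medium as well as in origin, and these cannot be told apart. Total counts ran from 25453830 to 52784510 per C2C12 library and from 32571583 to 51110723 per PM library.

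A myosin molecule pairs heavy chains, which hold the motor, with essential and regulatory light chains that wrap around the lever arm. In skeletal muscle the essential chains come from Myl1 (fast fibres), Myl3 (slow fibres and ventricle), Myl4 (embryonic muscle and atrium), Myl6b (slow muscle and non-muscle cells) and Myl6 (smooth muscle and non-muscle cells). The regulatory chains come from Mylpf (fast fibres), Myl2 (slow fibres and ventricle) and Myl9 (smooth muscle and non-muscle cells), and Mylk2 encodes the calmodulin-dependent kinase that phosphorylates the regulatory chain in skeletal muscle. Myl1 gives a longer and a shorter fast chain from separate promoters, which counts per gene do not separate. Levels are given as CPM, the counts scaled to library size with TMM factors, and genes are compared with each other only as CPM per kilobase of transcript. The quasi-likelihood test of edgeR was used. A gene counts as called where its adjusted p was below 0.05 and its log2 fold change was above 1 in size.

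The siRNA targets were measured first. Tead4, which encodes the TEAD factor induced during myogenesis, stood in C2C12 siControl cells at 18.7 and 21.2 CPM (day 0), 111 and 147 CPM (day 3), and 86.5 and 149.7 CPM (day 6). Silenced libraries held 4.37 and 4.28, 26.1 and 51.4, and 39.7 and 57.2 CPM at the same days. In PMs Tead4 went from 64.2 and 59.5, 194 and 197, and 163 and 173 CPM in siControl cells to 13.2 and 11.1, 30.6 and 35.2, and 40.8 and 59.2 CPM in siTead1/4 cells. The siRNA groups did not overlap at any day in either cell type, and Tead4 was called at all 3 days in PMs (log2 fold changes of -2.36, -2.58 and -1.75) and at days 0 and 3 in C2C12 cells (-2.21 and -1.76). Tead1, the other target, was lower in each siTead1/4 library than in both matched siControl libraries except in C2C12 cells at day 6, where 70.6 CPM lay below and 77.0 CPM within the control values of 76.0 and 136 CPM. It was called in PMs at days 0 and 3 (-1.44 and -1.68) and at no day in C2C12 cells, where at day 0 the silenced libraries held 28.9 and 4.5 CPM against 70.5 and 113 in the controls. The C2C12 calls of Tead4 were lost when any 1 of their 4 libraries was left out (log2 values from -2.30 to -2.12 at day 0 and from -2.31 to -1.34 at day 3), as was the PM call of Tead1 at day 0 (-1.70 to -1.22), and that at day 3 was lost without siControl replicate 1 (-1.65) or silenced replicate 2 (-1.52). Silenced C2C12 replicates were the least alike: the SD of their log2 difference over genes was 0.737, 0.732 and 0.629 (days 0, 3 and 6). The other 9 groups had values from 0.417 to 0.570.

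Markers of myogenic cells were present in all libraries. The summed level of Myod1, Myf5, Pax7, Des, Myog, Cdh15 and Chrna1 was 1585 and 1369 CPM in C2C12 siControl cells at day 0 against 5837 and 5920 in PMs. Myog, the factor that marks commitment to differentiation, stood at 9.68 and 2.91 CPM in C2C12 cells and at 959.7 and 1039 CPM in PMs at day 0. Endothelial markers summed to at most 13.8 CPM and macrophage markers to at most 2.28 CPM in any library. Fibroblast markers summed to between 281 and 5568 CPM, and with silencing 2 of the 6 were called, both in PMs at day 6 and both lower: Dcn (-2.46 ± 0.39, adjusted p = 0.0184) and Lum (-2.79 ± 0.50, adjusted p = 0.0290), which encode matrix proteoglycans. Their summed list was at 5568 and 3825 CPM in these controls and 5198 and 3678 in these silenced cells. Proliferation markers summed to between 45.2 and 1649 CPM, and in PMs at day 0 to 1359 and 1272 CPM in controls against 977 and 940.4 in silenced cells, with none of the 4 called. In C2C12 cells at day 6 replicate 2 stood apart in both siRNA groups. There the sums of replicates 1 and 2 were 70.3 and 313 CPM in controls and 93.0 and 520 CPM in silenced cells. The part of the fibroblast, proliferation and cardiac markers in the results was not tested. The cardiac list summed to between 169 and 3293 CPM, most of it Tnnt2, a troponin gene that differentiating skeletal muscle also expresses, and up to 3 of its 6 genes were at 0 in a library. It was lower without overlap in silenced C2C12 cells, with 654 and 909 CPM against 2035 and 2071 at day 3 and 1016 and 1466 against 2175 and 2264 at day 6, where Myl2 was called lower too. Without Tnnt2 the sums at day 3 were 20.5 and 19.3 against 98.9 and 113 CPM. Tnnt2 (-1.38 ± 0.26) and Myh6 were called at day 3 and Myh6 at day 6. In silenced PMs the list was lower at day 3 (1556 and 1718 against 2140.5 and 2094 CPM) and overlapped at day 6, with none called, and without Tnnt2 it stayed at 1.13 CPM or below in all PM libraries.

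All 9 genes passed the filter on low counts in each fit. Together they took 0.0876 and 0.0699% of all counts in C2C12 siControl cells at day 0, 0.955 and 0.850% at day 3, then 1.27 and 1.04% at day 6. In PM siControl cells the shares were 0.351 and 0.306% at day 0, 1.62 and 1.5% at day 3, then 1.63 and 1.64% at day 6. Silenced C2C12 cells held 0.361 and 0.555% at day 3 and 0.637 and 0.942% at day 6. These were below both controls at each day. Silenced PMs held 1.47 and 1.56%, and 1.52 and 1.72%, which overlapped the controls.

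**Figure D1:**
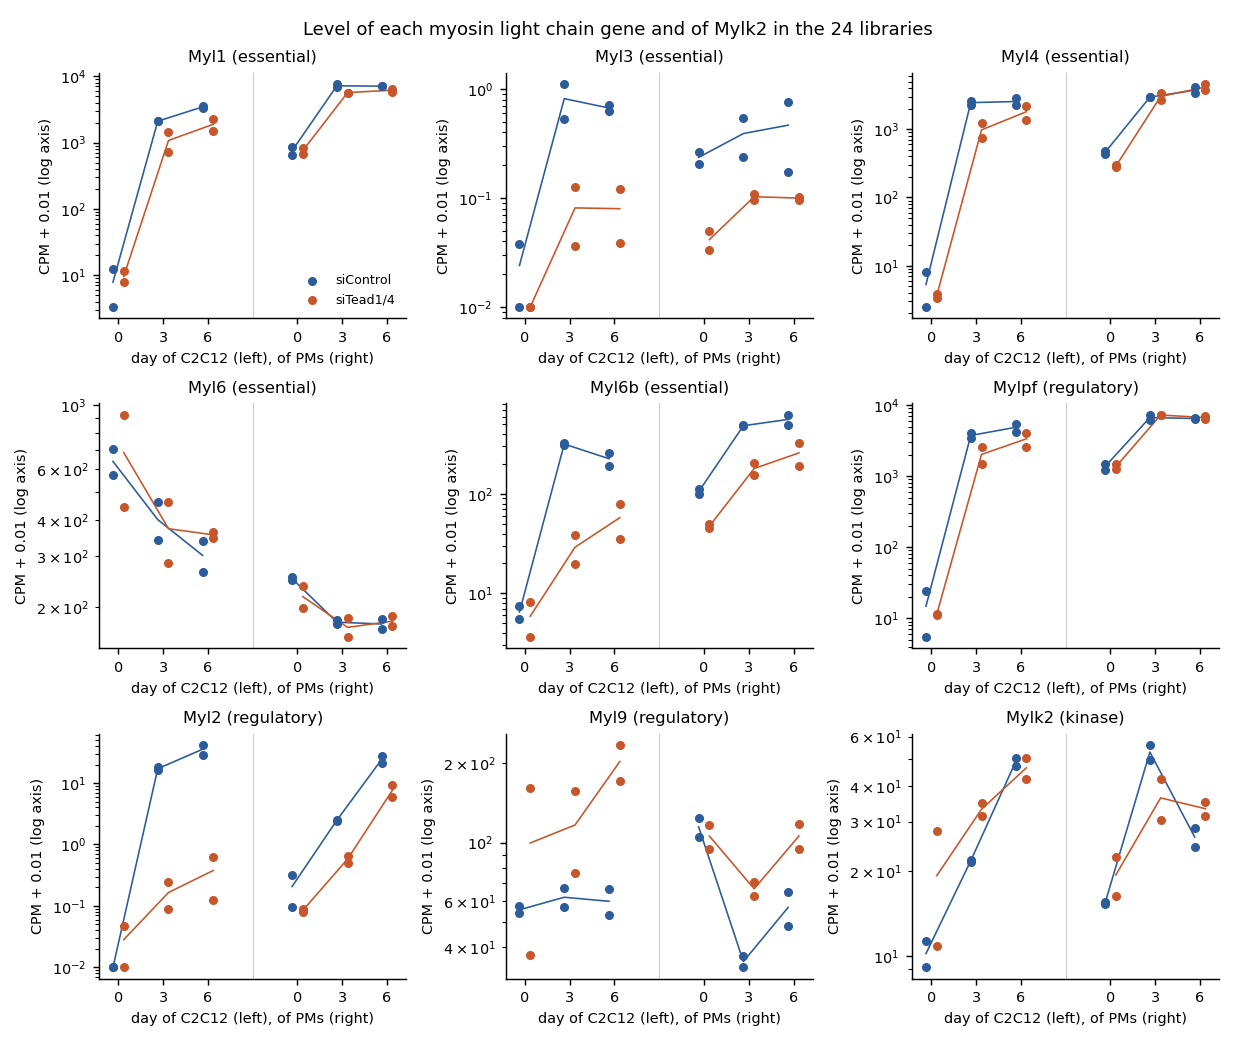
Level of each of the 9 genes (CPM with a small constant added, log axis) in the 24 libraries, by day, with C2C12 cells left and PMs right in each panel. Points are libraries, lines join group means, blue is siControl and orange siTead1/4; Myl6b and Myl2 are the panels in which the silenced cells lie below the controls at days 3 and 6 in both cell types with no overlap and a called difference in at least 1 day of each.

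The course of differentiation was then compared in siControl cells. In C2C12 cells 7 of the 9 genes rose and none fell at day 3 against day 0, with 28.7% of all tested genes called, and 7 rose and 1 fell at day 6 against day 0, with 31.1% of all genes called. In PMs 6 rose and 1 fell at day 3 (32.3% of all genes called), and 5 rose and 1 fell at day 6 (35.5%). The median log2 fold change of the 9 genes at day 3 was 5.82 in C2C12 cells and 2.15 in PMs, where the median over all tested genes was -0.01 and 0.01. The C2C12 median is the fitted value of Myl3, over 1 and 0 counts at day 0, and this value ran from 4.67 to 8.09 when single libraries were left out. The day 3 and day 6 comparisons share their day 0 libraries. Between days 3 and 6 edgeR called none of the 9 genes in C2C12 cells (0% of all genes called); 1 of them, Mylk2, had an unadjusted p under 0.05, and DESeq2 called none of the 9. In PMs 1 rose and 1 fell (2.8% of all genes called).

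In silenced cells, 4 of the 9 genes rose at day 3 (24.6% of all genes called) and 6 at day 6 (25.1%) in C2C12 cells against day 0. In PMs 5 rose at day 3 (28.3%) and 5 at day 6 (31.9%), and none fell in either cell type. Myl1, Mylpf, Myl4 and Myl6b were among those that rose in all 8 of these comparisons with day 0, silenced and control. In silenced C2C12 cells at day 6 Myl2 and Mylk2 rose too, Mylk2 by 1.24 ± 0.35 and Myl2 at a count ratio of 28.0 (95% counting interval 4.68 to 1141). Both calls were lost without silenced replicate 1 of day 0 (0.71 for Mylk2, where 0 counts of Myl2 were found) or replicate 2 of day 6 (1.11 for Mylk2, where 28 counts were found).

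Against siControl, silencing gave few calls among these genes. In C2C12 cells none of the 9 was called at day 0 (edgeR, 0.438% of all genes called; Mylk2 alone had an unadjusted p under 0.05, and DESeq2 called none), 2 fell at day 3 (Myl2 and Myl6b; 1.27%) and 1 fell at day 6 (Myl2; 0.0457%). In PMs 1 fell at day 0 (Myl6b; 2.6%), 2 fell at day 3 (Myl2 and Myl6b; 3.3%) and 1 fell at day 6 (Myl2; 0.743%). None of the 9 rose past the thresholds. Without silenced replicate 1, Mylk2 was called in C2C12 cells at day 0. The median log2 fold change of the 9 genes at day 3 was -1.0 in C2C12 cells and -0.35 in PMs, beside medians over all tested genes of 0.01 in both. In such bulk samples, fewer cells of a type and less RNA per cell cannot be told apart. The myogenic markers summed at day 3 to 6948 and 6681 CPM in C2C12 controls and 3791 and 5223 CPM in silenced cells. In PMs they summed at day 3 to 11066 and 10834 CPM in controls and 8818 and 9671 CPM in silenced cells, again lower without overlap. At day 6 the sums were 7633 and 8147 against 4631 and 6905 CPM in C2C12 cells, lower without overlap, and 9393 and 11274 against 9076 and 10170 CPM in PMs, which overlapped. None of the 7 was called at either day in either cell type, and their part in these results was not tested.

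**Figure D2:**
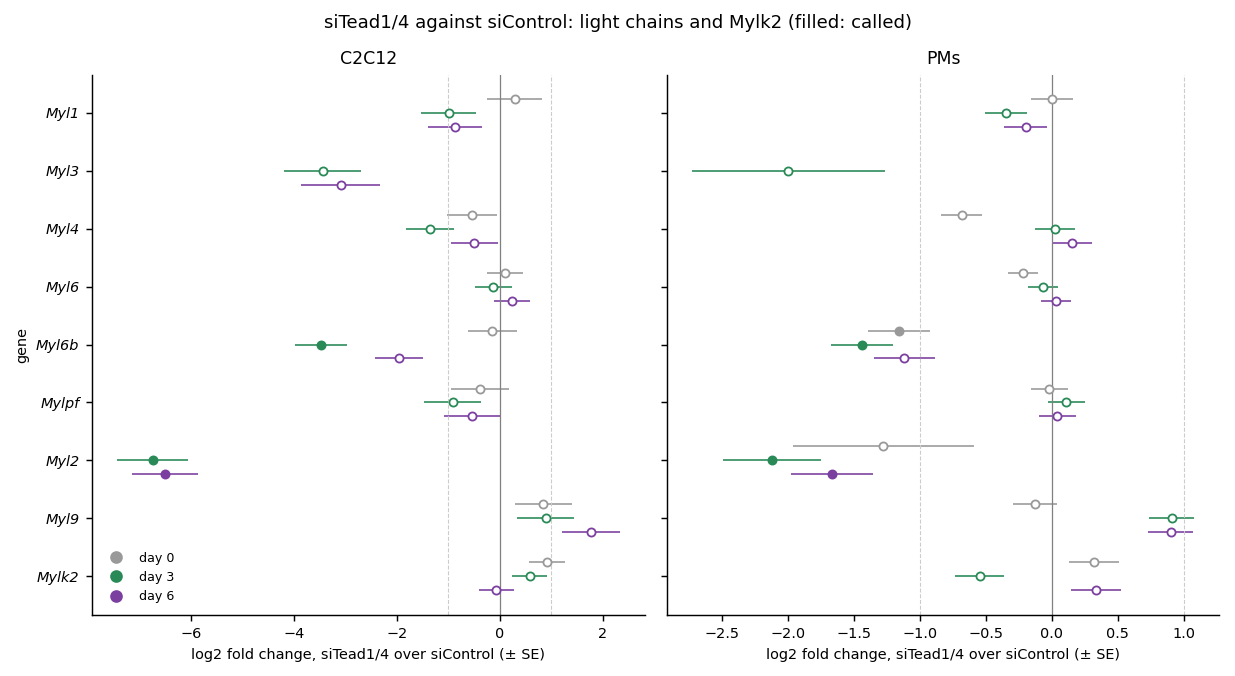
Log2 fold change of each gene, siTead1/4 over siControl (± SE), at days 0, 3 and 6 in C2C12 cells (left) and PMs (right); the x axes have different scales, dashed lines mark -1 and 1, and comparisons with a group at or under 3 counts per library are left out. Filled points are called: Myl2 at days 3 and 6 in both cell types, with -6.75 and -6.51 in C2C12 cells and -2.12 and -1.67 in PMs, and Myl6b at day 3 in C2C12 cells and at days 0 and 3 in PMs.

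Myl1, the fast essential chain (mm9 chr1:66970869-66991978, minus strand), rose in both cell types with differentiation. In C2C12 siControl cells it stood at 12.4 and 3.31 CPM at day 0, 2107 and 2087 at day 3, then 3528 and 3361 at day 6. In PM siControl cells it stood at 868 and 639 CPM at day 0, 7534 and 6797 at day 3, then 7078 and 7074 at day 6. Myl1 rose by 8.03 ± 0.71 (log2, SE) to day 3 in C2C12 cells and by 3.19 ± 0.17 in PMs. The PMs started higher by 6.60 ± 0.53 at day 0 and were still higher by 1.77 ± 0.43 at day 3. Silenced C2C12 cells held 710.0 and 1441 CPM at day 3 and 1475 and 2292 at day 6, below the controls with no overlap. The differences of -1.0 ± 0.53 and -0.87 ± 0.53 were not called (adjusted p = 0.448 and 0.860, edgeR). Silenced PMs held 5648 and 5674 CPM at day 3 and 5814 and 6508 at day 6, again below the controls without overlap (log2 -0.35 ± 0.16 and -0.20 ± 0.16, adjusted p = 0.230 and 0.743).

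Mylpf, the fast regulatory chain (chr7:134355122-134357812, plus strand), ran beside Myl1. It stood in C2C12 siControl cells at 24.2 and 5.40 CPM at day 0, 4016 and 3466 at day 3, then 5502 and 4236 at day 6, a rise of 7.94 ± 0.75 to day 3. PMs held 1505 and 1234, 7169 and 6208, and 6590.0 and 6381 CPM, a rise of 2.23 ± 0.15. The silenced C2C12 libraries lay below their controls at day 3 with 1467 and 2581 CPM and at day 6 with 2611 and 4092 CPM (log2 -0.92 ± 0.55 and -0.53 ± 0.55, adjusted p = 0.524 and 0.933). Silenced PMs overlapped their controls with 7366 and 7160.3 CPM at day 3 and 6345 and 6993 at day 6.

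Myl4, the embryonic and atrial essential chain (chr11:104411977-104457067, plus strand), was the third gene of this kind. C2C12 siControl cells held 8.14 and 2.47 CPM at day 0, 2635 and 2283 at day 3, then 2875 and 2234 at day 6, and PMs held 483 and 436, 2952 and 2975, and 3365 and 4123. It rose by 8.83 ± 0.65 to day 3 in C2C12 cells and by 2.63 ± 0.16 in PMs. In silenced C2C12 cells at day 3 it was at 741 and 1218 CPM, below both controls (log2 -1.36 ± 0.47, adjusted p = 0.208), and at day 6 at 1389.5 and 2229 CPM, below both controls, although the higher of these nearly reached the lower control. Silenced PMs held 299.5 and 276 CPM at day 0, below both controls, but the difference was under the fold threshold. At days 3 and 6 they overlapped the controls with 2680.1 and 3381, and 3769 and 4557 CPM. An antisense gene, Gm11665, overlaps exons of Myl4, and without strand the reads of the overlap could not be told apart. At most 87 counts were given to either table entry of that name in a library.

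The promoters of Myl1 and Mylpf are shown because the 2 genes moved together over all 24 libraries. Each run is the 250 bases before the RefSeq start on the coding strand, placed on NCBIM37 (mm9) by its exact match there; capitals mark E-boxes (CANNTG, the motif of the myogenic bHLH factors) and MCAT cores (CATTCC or its reverse complement GGAATG, the core of the TEAD motif), searched on both strands.
Myl1, chr1:66991631-66991880, minus strand: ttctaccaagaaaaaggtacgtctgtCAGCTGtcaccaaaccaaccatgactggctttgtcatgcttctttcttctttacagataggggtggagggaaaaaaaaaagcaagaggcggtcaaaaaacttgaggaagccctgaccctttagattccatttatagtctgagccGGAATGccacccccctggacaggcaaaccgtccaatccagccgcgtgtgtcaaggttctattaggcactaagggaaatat
Mylpf, chr7:134354872-134355121, plus strand: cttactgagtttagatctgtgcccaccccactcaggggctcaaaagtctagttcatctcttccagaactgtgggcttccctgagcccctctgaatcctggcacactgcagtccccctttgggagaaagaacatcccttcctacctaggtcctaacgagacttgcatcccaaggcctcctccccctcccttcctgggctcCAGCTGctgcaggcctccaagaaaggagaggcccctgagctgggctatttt
The window of Myl1 held CAGCTG from -224 and GGAATG from -80, counted from the start, and that of Mylpf held CAGCTG from -51 and no MCAT core. Only this window was found for Myl1, near the upstream end of its span, so its other promoter is not shown.

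Myl6b, the essential chain of slow muscle and non-muscle cells (chr10:127931213-127935741, minus strand), was the essential chain called with silencing in both cell types. C2C12 siControl cells held 7.49 and 5.49 CPM at day 0, 308 and 327 at day 3, then 191 and 260.2 at day 6, and PM siControl cells held 99.6 and 111, 492 and 478, and 495 and 628 CPM. It rose by 5.57 ± 0.56 to day 3 in C2C12 cells and by 2.15 ± 0.24 in PMs. In silenced C2C12 cells it reached 19.8 and 38.4 CPM at day 3 and 35.3 and 80.1 at day 6, far under the controls with no overlap. The differences were -3.48 ± 0.50 at day 3 (adjusted p = 0.0158) and -1.96 ± 0.47 at day 6 (adjusted p = 0.254, not called).

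In silenced PMs Myl6b stood at 45.5 and 49.3 CPM at day 0, 154 and 206 at day 3, then 189 and 328 at day 6, again below both controls at each day. It fell by 1.16 ± 0.24 on the log2 scale at day 0 (adjusted p = 0.0158) and by 1.44 ± 0.23 at day 3 (adjusted p = 0.00588), and the difference of -1.12 ± 0.23 at day 6 had an adjusted p of 0.0504 in edgeR. Without silenced replicate 2 the day 6 difference was -1.57 and called, and with a replicate block it was -1.14 and called (adjusted p = 0.00370). With edgeR as reported, Myl6b was the only one of the 9 genes called in PMs at day 0, before the change of medium. Without the filter on low counts Myl3 was called there too. The Myl6b calls rest on few libraries: in PMs the day 0 call was lost when any of the 4 libraries was left out. Its log2 value stayed between -1.23 and -1.09 over all settings tried. The day 3 call was lost without silenced replicate 1 (-1.25, adjusted p = 0.0515). In C2C12 cells at day 3 it was lost without siControl replicate 1 (0.0659), siControl replicate 2 (0.107) or silenced replicate 2 (0.0538), with log2 values between -4.01 and -3.43. In 1 fit of all 24 libraries both PM calls were lost (adjusted p = 0.175 at day 0 and 0.0689 at day 3). The C2C12 call was lost when just its own 4 libraries were fitted (-3.44, adjusted p = 0.0518).

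The effect on Myl6b at day 3 was smaller in PMs than in C2C12 cells by 2.02 ± 0.56, which was not called over all genes (adjusted p = 0.0923). It was called with a replicate block (2.07, adjusted p = 0.0207), with DESeq2 (2.04, 0.0138) and without the filter on low counts (2.04, 2.23e-05). Its promoter is shown as that of the essential chain called in both cell types.
Myl6b, chr10:127935742-127935991, minus strand: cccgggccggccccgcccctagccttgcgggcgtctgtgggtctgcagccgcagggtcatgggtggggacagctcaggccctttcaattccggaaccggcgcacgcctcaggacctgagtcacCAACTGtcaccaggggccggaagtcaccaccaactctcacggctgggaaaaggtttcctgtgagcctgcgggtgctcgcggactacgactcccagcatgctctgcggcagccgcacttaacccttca
It held an E-box (CAACTG from -127) and no MCAT core. The gene ends next to Myl6, which follows it on the same strand.

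Myl2, the slow and ventricular regulatory chain (chr5:122550960-122563481, plus strand), showed the largest difference between siRNA groups of the 9 genes in C2C12 cells. No read was counted for it in either C2C12 siControl library at day 0, where 3 counts would equal 0.0844 and 0.0533 CPM. At day 3 these cells held 763 and 799 counts (18.0 and 16.2 CPM) and at day 6 2174 and 863 counts (41.9 and 28.8 CPM), at least 248-fold and at least 513-fold higher than 3 counts per library. Silenced C2C12 cells held 0 and 1 counts at day 0, 3 and 10 counts at day 3 (0.0794 and 0.232 CPM), and 4 and 28 counts at day 6 (0.115 and 0.621 CPM). Myl2 was thus close to undetected in silenced C2C12 cells, and at days 3 and 6 both silenced libraries lay far below both controls, while at day 0 neither group was above 1 count. The differences were -6.75 ± 0.69 at day 3 (adjusted p = 0.0093) and -6.51 ± 0.65 at day 6 (adjusted p = 0.0394).

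In PM siControl cells Myl2 came up later, with 4 and 11 counts at day 0, 86 and 100 counts at day 3 (2.41 and 2.53 CPM), and 660 and 831 counts at day 6 (21.3 and 27.1 CPM). It was the only one of the 9 genes called higher in PM controls at day 6 than at day 3, by 3.28 ± 0.34 (adjusted p = 0.00123). At day 3 it was lower in PMs than in C2C12 cells (log2 -2.79 ± 0.45), and at day 6 the cell types were not called different (adjusted p = 0.321). Silenced PMs held 3 and 4 counts at day 0, 23 and 26 counts at day 3 (0.494 and 0.648 CPM), and 202 and 304 counts at day 6 (5.83 and 9.43 CPM). At days 3 and 6 they lay below the controls without overlap. The falls were -2.12 ± 0.37 at day 3 (adjusted p = 0.00805) and -1.67 ± 0.31 at day 6 (adjusted p = 0.0350).

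The effect of silencing on Myl2 was weaker in PMs than in C2C12 cells by 4.60 ± 0.79 at day 3 (edgeR, adjusted p = 0.00986) and 4.84 ± 0.67 at day 6 (adjusted p = 0.0184). These differences between the siRNA effects of the cell types were taken from group means, in a fit of all 24 libraries with 1 mean per group. Of all tested genes 1.25% and 0.0354% were called in these 2 comparisons, and 0.00591% at day 0, where edgeR called none of the 9, none had an unadjusted p under 0.05 and DESeq2 called none. The silenced PMs of day 6, at 5.83 and 9.43 CPM, were above all silenced C2C12 libraries. Calls of Myl2 were lost in C2C12 cells at day 3 without siControl replicate 2 (-6.82, adjusted p = 0.0512) and at day 6 without siControl replicate 1 (-6.21), siControl replicate 2 (-6.77) or silenced replicate 1 (-5.82). In PMs they were lost at day 3 without silenced replicate 1 (-1.94) and at day 6 without siControl replicate 1 (-1.83), siControl replicate 2 (-1.48) or silenced replicate 1 (-1.36). The PM call of day 6 was also lost in 1 fit of all 24 libraries (adjusted p = 0.155) and with only its 4 libraries (0.144), as was the C2C12 call of day 6 with only its 4 libraries (0.152). The difference between cell types at day 3 was lost without PM siControl replicate 1 (4.57, adjusted p = 0.0518). At day 6 it was lost without any of 5 of the 8 libraries: PM siControl replicate 1 (4.66) or 2 (5.00), silenced PM replicate 2 (4.43), C2C12 siControl replicate 1 (4.53) or silenced C2C12 replicate 1 (4.13).

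Ccdc63 overlaps exons of Myl2 on the other strand, and without strand the reads of the overlap could not be divided. It took from 3 to 32 counts in the 24 libraries. The Myl2 counts of C2C12 controls at days 3 and 6 and of PM controls at days 3 and 6 were above this range, and those of silenced PMs at day 6 were too. The Myl2 counts of silenced C2C12 cells, of PMs at day 0 and of silenced PMs at day 3 were not above it, and the part of the overlap in these was not tested.

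Myl3, the slow and ventricular essential chain (chr9:110666150-110672308, plus strand), was nearly absent. C2C12 siControl cells held 1 and 0 counts at day 0, 22 and 54 at day 3, then 32 and 21 at day 6, and PM siControl cells held 12 and 7, 19 and 9, and 5 and 23. The silenced libraries held 0 and 0, 1 and 5, and 1 and 5 counts in C2C12 cells and 1 and 2, 4 and 4, and 3 and 3 in PMs, below both controls of their day where the controls were above 1 count. In C2C12 controls the level at day 3 was 76.0-fold that of day 0 with a 95% counting interval of 13.2 to 3041. The differences with silencing in C2C12 cells were -3.44 ± 0.75 at day 3 (adjusted p = 0.0689) and -3.10 ± 0.77 at day 6 (adjusted p = 0.289). In PMs the controls were 7.14-fold higher at day 0 (counting interval 2.1 to 37.7) and 5.07-fold at day 6 (2.06 to 15.0), intervals that cover counting error only. With edgeR as reported, Myl3 was called in no comparison of siTead1/4 with siControl. In C2C12 cells at day 3 it was called with DESeq2 (-3.52, adjusted p = 0.0237), with a replicate block (-3.45, 0.0469), in 1 fit of all 24 libraries (-3.41, 0.0163) and without the filter on low counts (-3.43, 4.02e-05). Without the filter it was also called in C2C12 cells at day 6 (-3.10, 0.00158) and in PMs at day 0.

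Its promoter is shown because it is the other of the 2 windows of these genes that hold an MCAT core.
Myl3, chr9:110665932-110666181, plus strand: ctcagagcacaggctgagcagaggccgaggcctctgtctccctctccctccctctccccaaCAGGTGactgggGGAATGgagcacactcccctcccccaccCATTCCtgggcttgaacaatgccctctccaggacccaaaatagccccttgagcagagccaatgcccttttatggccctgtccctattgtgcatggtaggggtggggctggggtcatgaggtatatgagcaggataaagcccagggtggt
It held CAGGTG from -189, GGAATG from -177 and CATTCC from -149. RefSeq windows of 300 bases, which also take in 50 bases after the start, were found for 8 of the 9 genes, 10 windows in all, and 2 of the 10 held an MCAT core and 8 an E-box. Both windows of Myl2 lie upstream of the gene span printed above for it, at other start sites, and are among the 8. Of all 32851 windows in the reference, 14.7% held an MCAT core and 72.3% an E-box. A match in such a window describes its letters alone.

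Myl6, the essential chain of smooth muscle and non-muscle cells (chr10:127927916-127930931, minus strand), went the other way from the muscle chains. C2C12 siControl cells held 704 and 573 CPM at day 0, 461 and 342 at day 3, then 339.8 and 264 at day 6, a fall of 1.12 ± 0.36 on the log2 scale to day 6 (adjusted p = 0.0298). That call was lost without any of the 4 libraries, with log2 values from -1.32 to -0.93. PM siControl cells held 254 and 248, 180.1 and 174, and 182 and 168 CPM, and lay below C2C12 cells (log2 -1.35 ± 0.28 at day 0 and -1.18 ± 0.28 at day 3). The day 3 call was lost without C2C12 siControl replicate 1 (-0.97). Silencing gave no call for Myl6 at any day, with 443 and 927, 462 and 285, and 364 and 347 CPM in silenced C2C12 cells and 198 and 236, 157 and 183, and 172 and 186 in silenced PMs. These overlapped the controls except at day 6 in C2C12 cells, where both were above, and at day 0 in PMs, where both were below.

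Myl9, the regulatory chain of smooth muscle and non-muscle cells (chr2:156601156-156607394, plus strand), stood higher in silenced cells at days 3 and 6. In PM siControl cells it fell from 105 and 124 CPM at day 0 to 37.0 and 33.5 at day 3 (log2 -1.76 ± 0.17). At day 6 it stood at 65.1 and 48.3 (-1.08 ± 0.17 against day 0). The day 6 call was lost without replicate 2 of day 0 (-0.96) or of day 6 (-0.89). It was also lost in 1 edgeR fit of all 24 libraries (-1.02, adjusted p = 0.0649). Silenced PMs held 94.8 and 117 CPM at day 0, 62.8 and 70.5 at day 3, then 117 and 94.6 at day 6, above the controls at days 3 and 6 without overlap. The differences of 0.91 ± 0.17 (adjusted p = 0.0112) and 0.90 ± 0.17 (adjusted p = 0.0354) passed the threshold on p but not that on the fold. Without siControl replicate 1 or silenced replicate 2 the day 6 difference was 1.13 or 1.04 and called. In C2C12 siControl cells Myl9 was at 53.8 and 57.2, 56.7 and 67.2, and 53.0 and 66.5 CPM, and silenced cells held 37.4 and 162, 156 and 76.8, and 171 and 235 CPM. Silenced cells lay above both controls at days 3 and 6, with replicates far apart at days 0 and 3. The day 6 difference was not called in edgeR as reported, but was called without the filter on low counts.

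Other smooth muscle markers were measured beside it. Acta2, Tagln, Cnn1, Myh11, Smtn and Lmod1 summed in PMs to 1807 and 1667 CPM in controls and 1953 and 2128 in silenced cells at day 3, and to 1874 and 2019 against 2401 and 2669.6 at day 6, with Acta2 the most abundant and none of the 6 called. At day 0 Tagln was called lower in silenced PMs, with 30.1 and 21.3 CPM against 77.7 and 72.5 (-1.56 ± 0.24, adjusted p = 0.00556). In C2C12 cells at day 6, where Myl9 was higher in silenced cells, the list summed to 4617 and 4955 CPM in them against 2877 and 3309 in controls, without overlap and with none called. At day 3 it summed to 4475 and 2231 against 3735 and 3379. Myh11, which defines differentiated smooth muscle, was at 9.73 CPM or below in all libraries. Their part in the level of Myl9 was not tested.

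Mylk2, the skeletal muscle light chain kinase (chr2:152737088-152748804, plus strand), changed on a smaller scale. C2C12 siControl cells held 11.3 and 9.13 CPM at day 0, 21.6 and 22.0 at day 3, then 47.1 and 50.4 at day 6, and rose by 1.05 ± 0.35 to day 3 and 2.22 ± 0.36 to day 6. The first of these calls was lost without any of its 4 libraries (0.91 to 1.22). In PM siControl cells it stood at 15.6 and 15.4 CPM, peaked at day 3 with 56.1 and 49.7, and returned to 28.5 and 24.4 at day 6, a rise of 1.72 ± 0.19 and then a log2 change of -1.01 ± 0.19. The later fall was lost without siControl replicate 1 of day 3 (-0.92) or replicate 2 of day 6 (-0.91). Silenced C2C12 cells held 10.9 and 27.7, 34.9 and 31.5, and 42.5 and 50.5 CPM and silenced PMs 16.3 and 22.5, 42.5 and 30.3, and 35.3 and 31.3, and no comparison with siControl was called.

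Compared per kilobase, the order of the transcripts changed with differentiation. In C2C12 siControl cells at day 0 Myl6 led with 960.0 ± 140.1 CPM per kb (SD, n = 2), followed by Myl9 with 47.8 ± 2.09, Mylpf with 16.7 ± 15.0, Myl6b with 6.33 ± 1.38 and Myl1 with 5.53 ± 4.53, and the last 3 did not differ beyond their spread. At day 3 the order was Mylpf (4227 ± 439), Myl1 (1475 ± 9.86), Myl4 (1418 ± 144), Myl6 (604 ± 127) and Myl6b (309 ± 13.5), with Myl1 and Myl4 within their spread at the gene lengths of the deposited table. In PMs at day 3 it was Mylpf (7558 ± 768), Myl1 (5039 ± 366), Myl4 (1709 ± 9.28), Myl6b (472 ± 9.73) and Myl6 (267 ± 6.16). Myl9, Mylk2, Myl2 and Myl3 followed in both cell types, Myl2 above Mylk2 in C2C12 cells (8.76 ± 0.663 and 7.38 ± 0.104 CPM per kb) and below it in PMs (1.27 ± 0.0416 and 17.9 ± 1.55).

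The make-up of the 2 pools of light chain transcripts was computed on the same scale, as the share of each gene in the summed CPM per kb. Of the essential chain transcripts, Myl6 made up 98.5% in C2C12 siControl cells at day 0 and 29.7% in PMs, and 15.8% and 3.56% at day 3 (means of 2 libraries). Myl1 went from 0.538% to 38.8% in C2C12 cells and from 41.3% to 67.3% in PMs. Myl6b made up 8.16% in C2C12 controls and 1.45% in silenced cells at day 3, and 6.32% and 2.84% in PMs. Of the regulatory chain transcripts, counting also the non-muscle genes Myl12a and Myl12b, Mylpf made up 4.03% in C2C12 controls at day 0, 89.7% at day 3 and 81.0% in silenced cells at day 3. In PMs it made up 82.6%, 97.0% and 97.2%. Myl2 was at most 0.301% of this pool in any group. With another gene length, that of the GENCODE vM1 exons, chosen after seeing the data, Myl4 at day 3 made up 20.2% in place of 37.2% in C2C12 controls and 11.8% in place of 22.9% in PMs, because its listed length is 1734 bases in the deposited table and 4637 by those exons. With those lengths the order of the essential chains in C2C12 controls at day 3 changed too: Myl1 made up 43.2 and 47.1% in the 2 libraries, Myl6 25.2 and 20.5% and Myl4 20.7 and 19.7%, so that Myl1 stood above Myl4 and Myl4 no longer above Myl6. The order in PM controls at day 3 was the same with both lengths.

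**Figure D3:**
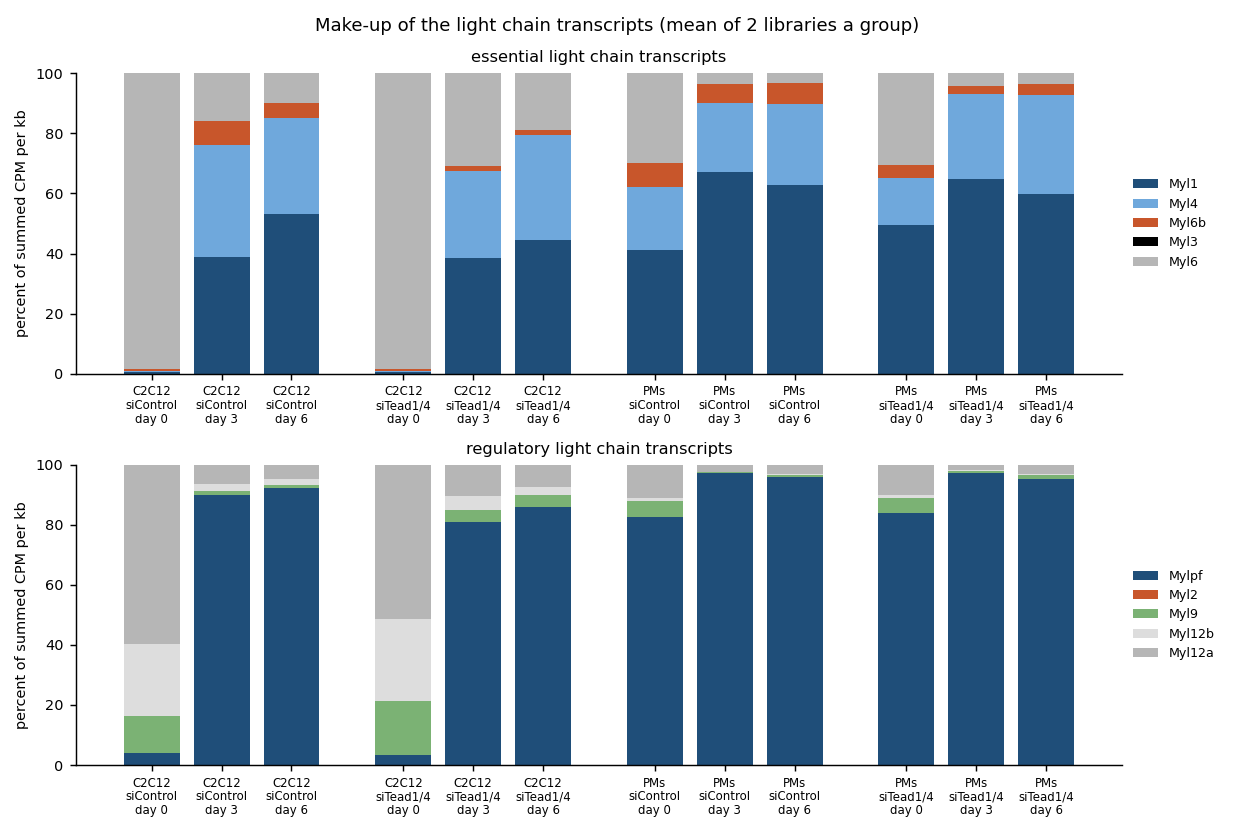
Share of each gene in the essential (top) and regulatory (bottom) light chain transcripts, as percent of the summed CPM per kb, mean of 2 libraries in each of the 12 groups. Myl6, Myl12a and Myl12b lead the C2C12 groups of day 0 and Myl1 and Mylpf lead the PM groups of every day; Myl3 and Myl2 are too small to see.

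PMs and C2C12 cells were also compared directly in siControl. At day 0, 6 of the 9 genes were higher and 1 lower in PMs (26.8% of all genes called). Myl1 was higher by 6.60, Mylpf by 6.54 ± 0.55, Myl4 by 6.46 ± 0.47 and Myl6b by 4.02 ± 0.45, Myl2 at least 2.87-fold and Myl3 21.1-fold (counting interval 3.35 to 877), and Myl6 was lower. The calls of Myl2 and Myl3 at these low counts were lost without C2C12 replicate 2, and also without PM replicate 2 for Myl2 and PM replicate 1 for Myl3. At day 3, 2 were higher (Myl1, and Mylk2 by 1.28 ± 0.30) and 2 lower (Myl2 and Myl6; 29.8% of all genes called). At day 6 Myl6b alone was called, higher by 1.31 ± 0.39 (adjusted p = 0.0149; 24.9% of all genes called), a call lost without PM replicate 2 (1.11) or C2C12 replicate 1 (1.08).

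With edgeR as reported, the silencing effect was not called different between days for any of the 9 genes. Between days 3 and 0, edgeR called 0% of all genes in C2C12 cells and 0.328% in PMs, and between days 6 and 3 it called 0% in both; unadjusted p-values under 0.05 were found for 2 and 3 of the 9 genes between days 3 and 0 and for 1 in each cell type between days 6 and 3. DESeq2 called Myl2 and Myl6b in C2C12 cells and Myl9 in PMs between days 3 and 0, and none between days 6 and 3. With a replicate block Myl9 was called in PMs between days 3 and 0 too.

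Other genes of the family and of the enzymes that act on the regulatory chain formed a list of 18, of which 17 were tested: other light chains (Myl7, Myl10, Myl12a, Myl12b), kinases (Mylk, Mylk3, Mylk4, Rock1, Rock2, Dapk3), subunits and an inhibitor of myosin phosphatase, and calmodulins. In C2C12 siControl cells 4 rose and 2 fell at day 3 (28.7% of all genes called), with Mylk4 up by 6.26 ± 0.46, Mylk3 at a count ratio of 42.5 (95% counting interval 16.3 to 158) and Mylk, the smooth muscle and non-muscle kinase, up by 4.99 ± 0.45. In PMs 3 rose and 1 fell (32.3% of all genes called), with Mylk3 up by 2.31 ± 0.46 and Ppp1r12b, a targeting subunit of the phosphatase, by 1.92 ± 0.24. With silencing 1 of the 17 was called at day 3 in C2C12 cells (1.27% of all genes), the light chain Myl10 with 0 and 0 counts in controls and 6 and 8 in silenced cells (at least 2.62-fold higher). Myl10 passed the filter on low counts in C2C12 cells only through the silenced libraries of day 0, with 17 and 14 counts against 4 and 10 in controls. Its call in silenced cells is therefore a description at low counts and not support for a rise. Mylk3, the kinase known from the heart, was the 1 of the 17 called in silenced PMs at days 3 and 6 (3.3% and 0.743% of all genes), with 1.44 and 1.92 CPM against 0.561 and 0.455 at day 3 (1.71 ± 0.34) and 3.41 and 2.42 against 0.841 and 1.14 at day 6 (1.55 ± 0.32). Silenced C2C12 cells lay below their controls at day 3 with 0.423 and 0.695 against 1.60 and 2.06 CPM. The difference of the effect between cell types at day 3 was 3.42 ± 0.74 (adjusted p = 0.0318). The Myl10 call was lost without any of its 4 libraries, as was the Mylk3 call of day 6, with values from 1.29 to 1.79, and that at day 3 without siControl replicate 1 (1.87) or 2 (1.56) or silenced replicate 2 (1.49).

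The heavy chains, partners of the light chains in myosin, were taken as a list of 12 genes, of which 11 were tested in C2C12 cells and 12 in PMs. In silenced C2C12 cells 5 fell at day 3 (1.27% of all genes called), with Myh8, the perinatal chain, at -4.89 ± 1.01, Myh6, an atrial chain, at -4.05 ± 0.33 and Myh7, the slow chain that works with Myl2 and Myl3, at -4.04 ± 0.51. At day 6 Myh6 alone fell (-2.52 ± 0.30; 0.0457% of all genes called), and at day 0 edgeR called none, 4 having an unadjusted p under 0.05. In PMs 3, 4 and 2 fell and 1 rose at days 0, 3 and 6, where 2.6%, 3.3% and 0.743% of all genes were called. Those that fell at day 6 were Myh2, a fast chain, with 15.9 and 29.9 CPM in silenced cells against 131 and 132 (-2.52 ± 0.32), and Myh8 with 1648 and 2510.1 against 4923 and 6523 (-1.46 ± 0.21). The call of Myh2 was lost with only its 4 libraries (adjusted p = 0.0826), and that of Myh8 also in 1 fit of all 24 (0.755) and without silenced replicate 1 (-1.18). The gene that rose was Myh4, the fastest skeletal chain, by 1.91 ± 0.29, 2.02 ± 0.28 and 1.62 ± 0.28. Myh7 fell by 2.88 ± 0.46 at day 0 and 3.03 ± 0.45 at day 3 and Myh1 by 1.71 ± 0.20 and 2.33 ± 0.21. Myh7 stood in PM controls at 33.4 and 44.9 CPM at day 3 and in silenced PMs at 3.33 and 6.4. The calls of Myh8 at day 3 and Myh6 at day 6 in C2C12 cells were lost without any of their 4 libraries (-5.58 to -4.15 and -2.68 to -2.34), and that of Myh7 without replicate 2 of either siRNA (-3.69 and -4.02). In PMs Myh7 at day 0 was lost without silenced replicate 1 (-2.65), and Myh4 at day 0 without siControl replicate 1 (1.78) and at day 6 without silenced replicate 1 (1.17) or siControl replicate 2 (1.34).

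**Figure D4:**
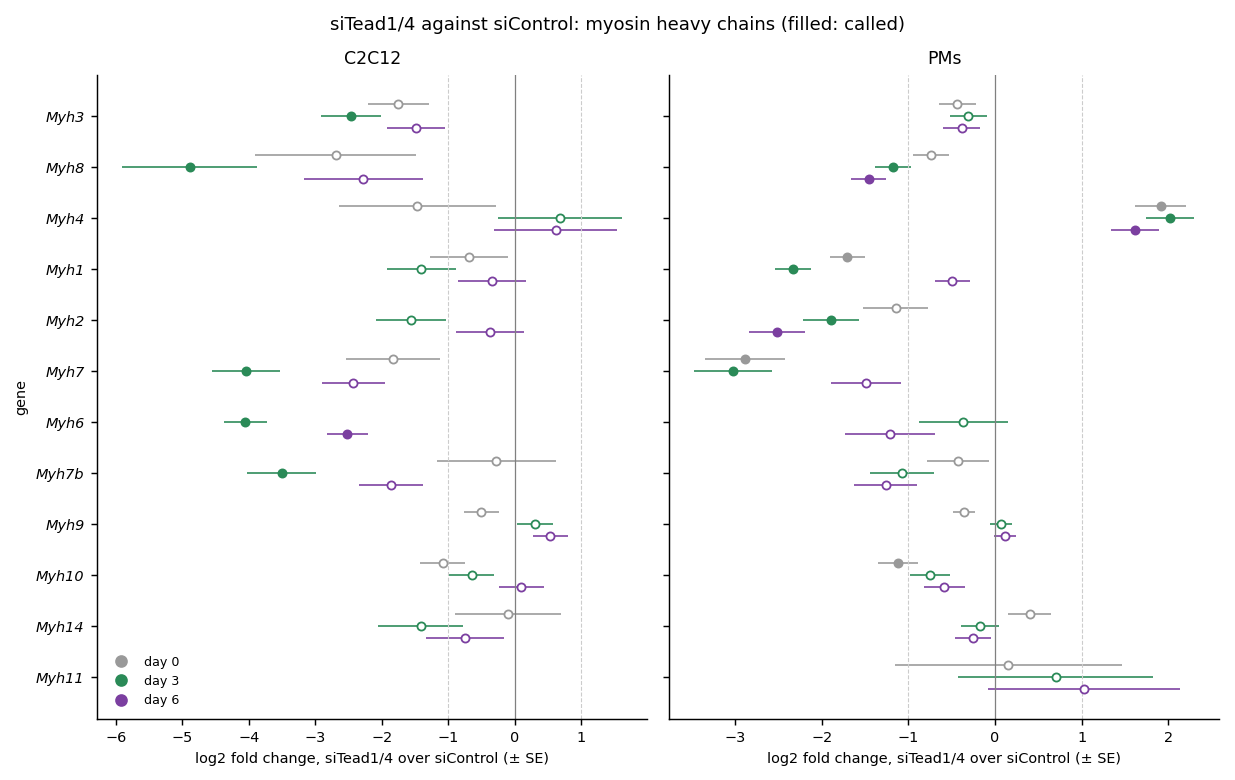
Log2 fold change of the myosin heavy chain genes, siTead1/4 over siControl (± SE), at days 0, 3 and 6 in C2C12 cells (left) and PMs (right), with different x scales; filled points are called, dashed lines mark -1 and 1, and comparisons with a group at or under 3 counts per library are left out. Myh7 and Myh8 are filled below 0 at day 3 in both cell types, and Myh4 is filled above 0 at all 3 days in PMs.

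Genes with the most similar pattern were named by Pearson's r of log2 CPM over the 24 libraries, a description of points that share cell type, day and siRNA. Myl1 was closest to Tnnc2 (0.998), the fast troponin C gene, Kbtbd5 (0.997) and Tnnt3 (0.996), the fast troponin T gene. Mylpf was closest to Acta1 (0.998), the skeletal actin gene, Cbfa2t3 (0.996) and Hfe2 (0.995), and Myl4 to Trim63 (0.994), Hfe2 (0.994) and Cacna1s (0.993). For Myl6b they were Actn3 (0.969), a fast fibre actinin gene, Tmem117 (0.967) and 1810020D17Rik (0.967), and for Myl2 Scel (0.928), Prune (0.909) and Adamts8 (0.890). For Myl6 they were Gnai2 (0.966), Kctd17 (0.961) and Sh3bgrl3 (0.960), for Mylk2 Pccb (0.870), Hexdc (0.863) and Hist2h3c2 (0.850). For Myl3 they were Ddb1 (0.875), Preb (0.867) and Apbb1 (0.860). Myl9, whose best values were the lowest, was closest to Nhlh2 (0.735), Spry2 (0.725) and Mettl21a (0.720). Among the members, r was 0.993 for Myl1 with Mylpf, 0.988 for Myl1 with Myl4, 0.913 for Myl1 with Myl6b, 0.849 for Myl2 with Myl6b and -0.80 for Myl1 with Myl6.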

How the data were processed

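The authors made TruSeq libraries from polyadenylated RNA, which keep no strand, and mapped and counted reads per gene against mm9; the submitters' processing notes name CASAVA 1.8.2, TopHat2 2.0.10, Bowtie2 2.1.0, HTSeq 0.6.1 and DESeq2 1.8.1. The deposited table holds raw counts, which were used here. It also holds the signal the authors obtained by dividing counts by size factors, with and without the gene length, and 36 columns of libraries that are not listed; neither was used. Counts were analysed with edgeR 4.0.16 in R 4.3.3 (filterByExpr, TMM, glmQLFit, glmQLFTest), with DESeq2 1.42.0 as an alternative. Each cell type was fitted on its 12 libraries with 1 mean per group (15303 genes in C2C12 cells, 16144 in PMs), and cell types were compared in a fit of all 24 (16926 genes). P-values were adjusted over all tested genes (Benjamini-Hochberg). The SE was taken from the log2 fold change and the F statistic. With 2 replicates a group, each p-value sets a difference against a spread estimated over all groups of its fit and moderated across genes. That spread is one between these samples alone. A group without counts was set at 3 counts per library, and intervals cover counting error only. A prior count of 2 was used for log2 CPM in correlations. The 9 genes were all named, of the other lists the called genes with the 3 largest changes in a comparison, and for each member the 3 genes of most similar pattern. Members and lists were chosen with earlier results of these data known. Alternatives were other scaling and filtering, a replicate block, other sets of libraries, DESeq2 and leaving out each library. Promoters came from RefSeq windows (GRCm38.p6); Mylk2 had none. The fits were checked on simulated data.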

Additional observations from a re-analysis of the deposited data

Results flagged for a closer look

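The effect of siTead1/4 on Myl2 differed between PMs and C2C12 cells when the difference itself was tested in edgeR over all 24 libraries. It was 4.60 on the log2 scale at day 3 and 4.84 at day 6, with the fall smaller in PMs on both days, and on each day both silenced C2C12 libraries lay below both silenced PM libraries. The counts behind the C2C12 side are small (3 and 10 at day 3, 4 and 28 at day 6), and the difference lost its call at day 3 without PM siControl replicate 1 (4.57) and at day 6 without any of 5 of the 8 libraries (4.13 to 5.00).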

How the results depend on the processing

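No fold change that was followed through the alternatives turned its direction. Those followed were the called ones of the 9 genes, some uncalled ones, the named genes of the lists under silencing and the siRNA targets. The direction of the other uncalled fold changes was not followed. With the other gene lengths the order of Myl4 and Myl6 in C2C12 controls at day 3 turned, from 38.0 and 36.4% against 17.4 and 14.2% to 20.7 and 19.7% against 25.2 and 20.5% of essential chain transcripts. Counts of the 9 genes called kept within 1.5 times of the reported count in 23 of 26 comparisons with a replicate block, 25 with RLE scaling, 20 with DESeq2, 16 without the filter on low counts, 13 of 20 in 1 fit of all 24 libraries and 9 of 12 with only the 4 libraries of the comparison. The others were as follows, the cause not being tested.
With DESeq2, 2 genes were called at day 6 with silencing in C2C12 cells and 2 in PMs (Myl6b added), 2 in the C2C12 effect of day 3 minus day 0 (Myl2, Myl6b), 1 in that of PMs (Myl9), 2 in PMs against C2C12 cells at day 6 (Myl1 added) and 2 in the effect of PMs minus C2C12 cells at day 3 (Myl6b added). With RLE, 2 were called at day 6 in PMs (Myl6b added). In 1 fit of all 24 libraries, silencing gave 4, 2 and 1 in C2C12 cells (day 3, Myl3 and Myl4 added; day 6 and day 3 minus day 0, Myl6b added) and 0, 1 and 0 in PMs (days 0 and 3, Myl6b lost; day 6, Myl2 lost), and PM controls of day 6 against day 3 gave 1 (Mylk2 lost). Without the filter, silencing gave 4 and 4 in C2C12 cells at days 3 (Myl3 and Myl4 added) and 6 (Myl3, Myl6b and Myl9 added; 2 and 1 for the differences between days) and 2 and 2 in PMs at days 0 (Myl3 added) and 6 (Myl6b added; 1 for day 3 minus day 0), C2C12 controls of day 6 against day 3 gave 1, PMs against C2C12 cells at day 6 gave 2, and the effect difference between cell types at day 3 gave 4 (Myl4, Myl6b and Mylk2 added). With only the 4 libraries of a comparison, silencing gave 1 and 0 in C2C12 cells at days 3 (Myl6b lost) and 6 (Myl2 lost) and 0 in PMs at day 6 (Myl2 lost).
The replicate numbers are not said to mark a shared batch. Same-numbered deviations of siTead1/4 and siControl correlated at -0.130, 0.0896 and 0.468 in C2C12 cells (days 0, 3 and 6) and at 0.377, 0.409 and 0.503 in PMs. With the replicate block 2 genes were called in PMs at day 6 (Myl6b added), 1 in the PM effect of day 3 minus day 0 (Myl9) and 2 in the effect of PMs minus C2C12 cells at day 3 (Myl6b added), and Myl3 was called in C2C12 cells at day 3.
Leaving out 1 library in turn leaves a lone sample in a group, assumed to vary like the others. The counts called then ran with silencing from 0 to 1, 0 to 2 and 0 to 1 in C2C12 cells and 0 to 0, 0 to 2 and 0 to 3 in PMs (days 0, 3 and 6), from 6 to 6, 7 to 7 and 0 to 0 in C2C12 controls and 7 to 7, 5 to 7 and 1 to 2 in PM controls (day 3 and day 6 against day 0, day 6 against day 3), from 4 to 6 and 4 to 7 in silenced C2C12 cells and 5 to 6 and 5 to 5 in silenced PMs, from 5 to 7, 3 to 4 and 0 to 1 for PMs against C2C12 cells, from 0 to 0, 0 to 1 and 0 to 1 for the effect of PMs minus C2C12 cells, and stayed at 0 for effects between days.
Counts over all tested genes moved more. Silencing called in C2C12 cells (days 0, 3 and 6) 21 up and 46 down, 29 up and 166 down, then 2 up and 5 down as reported. It called 219 up and 261 down, 468 up and 587 down, then 143 up and 244 down without the filter. It called 108 up and 147 down, 197 up and 407 down, then 35 up and 107 down with DESeq2. In C2C12 cells it called 113 up and 132 down, 256 up and 434 down, then 22 up and 66 down in 1 fit of all 24 libraries, but 0 up and 0 down, 0 up and 7 down, then 0 up and 0 down with only the 4 libraries. In PMs it called 242 up and 178 down, 339 up and 193 down, then 75 up and 45 down as reported. There it called 337 up and 241 down, 479 up and 325 down, then 193 up and 142 down without the filter, and 250 up and 203 down, 351 up and 235 down, then 132 up and 92 down with DESeq2. In PMs it called 101 up and 103 down, 205 up and 107 down, then 43 up and 17 down in 1 fit of all 24 libraries, and 0 up and 0 down at day 6 with only the 4 libraries. With the replicate block the C2C12 count at day 6 was 3 up and 9 down and the PM count 170 up and 120 down. The effect of PMs minus C2C12 cells at day 3 was called for 172 up and 40 down as reported, 537 up and 316 down without the filter, 354 up and 140 down with DESeq2 and 261 up and 66 down with the replicate block, and at day 6 for 5 up and 1 down, 108 up and 38 down, 48 up and 12 down and 28 up and 6 down. In controls of day 6 against day 3 the counts were 0 up and 0 down in C2C12 cells (81 and 21 without the filter, 19 and 0 with DESeq2; 406 genes had an unadjusted p under 0.05) and 358 up and 94 down in PMs (544 and 165 without the filter, 586 and 146 with the block, 132 and 32 in 1 fit, 124 and 24 with only the 4 libraries). For the effect of day 3 minus day 0, 0 and 0 in C2C12 cells became 386 and 359 without the filter, 134 and 194 with DESeq2 and 180 and 214 in 1 fit, and 37 and 16 in PMs became 201 and 172, 152 and 119, and 6 and 1.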
